A study of Mus musculus with 8 samples.

Results

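The retinoid genes of the visual cycle were followed in retina from C57BL/6J mice at day 17, all under oxygen-induced retinopathy (OIR). The set holds 10 genes, found by symbol among the 57010 rows of the deposited table: Stra6, Lrat, Rpe65, Rdh5, Rgr, Rlbp1, Rbp3, Rdh8, Rdh12 and Abca4. OIR exposes pups to excess oxygen, which prunes the growing retinal vessels, and the later relative lack of oxygen drives disordered regrowth. Retinas in the knockdown group (4 libraries) had received scAAV, a viral vector derived from adeno-associated virus, aimed at the long noncoding RNA MM2P. Retinas in the control group (4 libraries) had been given a control scAAV, so all 8 libraries carry the disease model and a vector. The treatment label of the knockdown group reads as a knockout, where the design text speaks of knockdown. The sources used here do not state the vector's promoter or serotype, whether retinas were pooled, or whether replicates are separate animals. The p-values therefore measure the spread between these libraries, which may be partly technical. Some libraries held RNA of both sexes, as the sex-linked transcripts below show.

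Vision starts when light turns the cis form of retinal in an opsin into the all-trans form, which the photoreceptor must clear and the tissue must turn back. Photoreceptors reduce the spent retinal to retinol. The retinal pigment epithelium (RPE), the pigmented layer behind the photoreceptors, stores it as esters, isomerizes it and oxidizes it to cis retinal again. Müller glia hold some of the same proteins, and carrier proteins move the retinoid between the cells.

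Library totals were 16025695 to 20163448 estimated counts in the knockdown group and 20450312 to 21402898 in the controls. The target transcript Mm2pr, the table's symbol for MM2P, had 0, 0, 2 and 20.6 estimated counts in knockdown libraries 1 to 4, and 1, 1, 16.95 and 7.34 in controls 1 to 4, so it does not check the labels. The libraries carried the defining transcripts of retina: the 16 rod markers summed to between 42846 and 46552 TPM (a level per length, scaled to equal totals) in the knockdown group and between 46649 and 48209 TPM in the controls. The Y-linked helicase gene Ddx3y had 0 counts in knockdown 1, knockdown 3 and control 1, and 814 to 1919 counts in the others. Xist, the RNA of the inactive X chromosome, had 38493, 25563, 45376 and 28658 counts in knockdown libraries 1 to 4, and 49127, 25047, 16 and 21026 counts in controls 1 to 4. Knockdown 2, knockdown 4, control 2 and control 4 thus carried both transcripts, and so held RNA of both male and female mice. Lens genes moved with the group, at 52.6 to 541 TPM summed over 17 genes in the knockdown libraries and 12.1 to 16.6 TPM in the controls. Of 14 tested lens genes 7 passed in edgeR, all higher in knockdown (10 in DESeq2, 0 in limma on log2(TPM + 1), 8 in limma on log2(TPM + 0.1)). Among them, Cryaa, a lens crystallin gene, had 14.9, 3.70, 40.5 and 5.70 CPM (counts scaled for depth) in knockdown libraries 1 to 4, and 0.0489, 0.336, 0.0472 and 0.148 CPM in controls 1 to 4 (edgeR adjusted p = 0.0280). The part of depth, sex makeup and lens RNA in the results on the retinoid genes was not tested, beyond the fits with the Ddx3y level as a covariate and without single libraries.

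None of the 10 visual cycle genes passed the test between knockdown and control retinas. In the quasi-likelihood test of edgeR, with p-values adjusted over 16118 tested genes and a threshold of 0.05, 0 of the 10 were called, against 0.0620% of all genes (0 lower, against 0.0186%, and 0 higher, against 0.0434%). DESeq2 called 0 and limma on log2(TPM + 1) called 0. All 10 had passed the expression filter of at least 1 TPM in at least 4 libraries, and each did so in all 8 libraries. At an unadjusted edgeR p under 0.05 there were 2 of the 10, Rdh5 and Lrat, against 5.27% of all genes, and DESeq2 gave 3 (with Rgr) and limma 2. Log2 fold changes, given throughout as knockdown over control, were negative for all 10, against 48.2% of all genes, but the sign was not stable for Rlbp1, which turned positive with scaling by library totals alone, in limma and without several single libraries, or for Abca4, which turned positive without knockdown 1 or without control 2. Their median was -0.09, against 0.0039 over all tested genes. The values of Rdh5, Lrat, Rpe65 and Rgr lay between -0.42 and -0.25, and those of the other 6, Stra6 and the photoreceptor genes among them, lay between -0.09 and -0.0044. The classes of cells were not tested against each other.

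**Figure D1:**
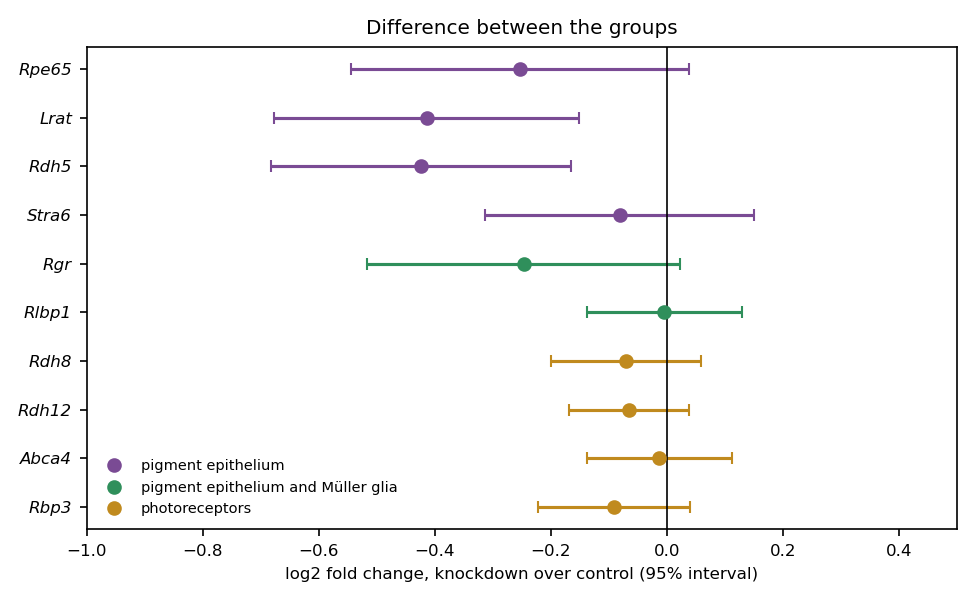
Log2 fold change of each of the 10 genes, knockdown over control (points), with its 95% interval from edgeR (bars; 4 libraries a group), coloured by the cells that express it. The intervals of Lrat and Rdh5 lie below 0 and the other 8 include 0; no gene passed after adjustment over all tested genes.

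Per length, the visual cycle transcripts spanned a wide range, with the photoreceptor genes and Rlbp1 high and the pigment epithelium genes low. Rbp3 had the highest level, at 1245 to 1518 TPM over the 8 libraries. Rdh12 followed at 727 to 814 TPM, Rlbp1 at 475 to 534 TPM, Abca4 at 239 to 295 TPM and Rdh8 at 131 to 157 TPM. Rpe65 lay at 30.1 to 52.0 TPM and Rgr at 21.9 to 37.0 TPM. Rdh5 lay at 13.2 to 21.5 TPM, Stra6 at 8.30 to 10.6 TPM and Lrat at 4.14 to 6.83 TPM. In this order the ranges of Rpe65 and Rgr overlapped, and no other neighbours overlapped. In bulk tissue fewer cells of a type and less RNA per cell cannot be told apart, so these levels mix the number of pigment epithelial cells, Müller glia and photoreceptors in each retina with the amount per cell.

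**Figure D2:**
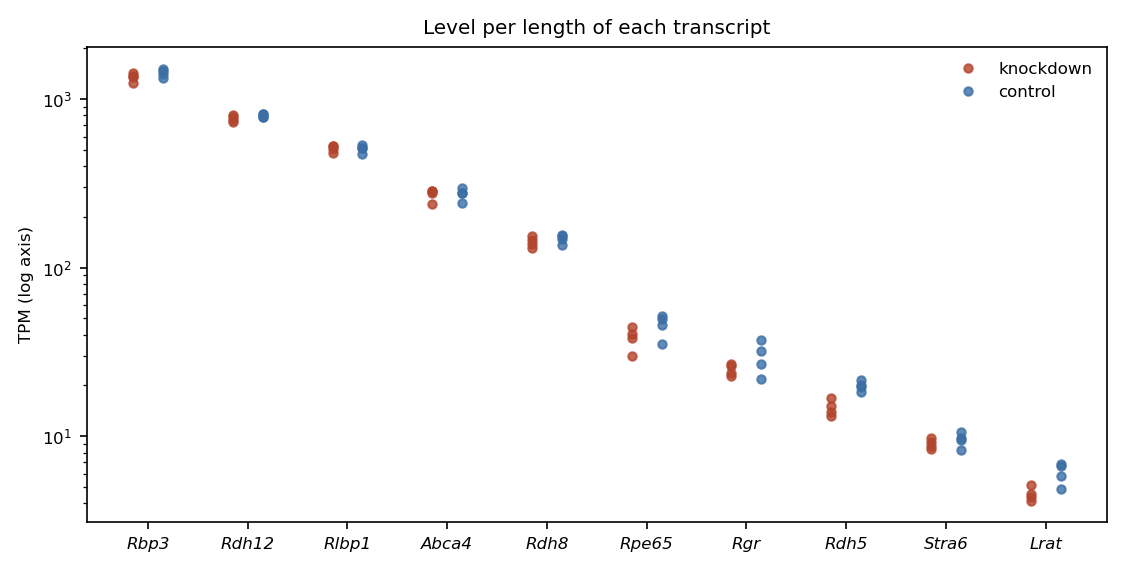
Level of each transcript in TPM on a log axis, ordered by its mean over the 8 libraries, with 1 point per library (knockdown left, control right). Rbp3 reached 1518 TPM and Lrat did not exceed 6.83 TPM, and the neighbours Rpe65 and Rgr shared part of their range.

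Among the pigment epithelium genes, Rdh5 and Lrat stood lowest in the knockdown group relative to the controls. Rdh5 encodes the dehydrogenase that oxidizes cis retinol to cis retinal, the last step before the pigment is sent back to the photoreceptor. It had 8.93, 6.67, 6.94 and 7.64 CPM (of the total over the tested genes, with TMM scaling) in knockdown libraries 1 to 4, and 10.1, 9.66, 9.39 and 11.4 CPM in controls 1 to 4. All 4 knockdown values lay below all 4 control values, with knockdown 1 closest to the controls. Rdh5 was the 1 gene of the 10 whose groups did not overlap, where 3.31% of all tested genes had no overlap in either direction and 1.71% had none with knockdown lower. Its log2 fold change was -0.42 (95% interval -0.68 to -0.17, SE 0.12, edgeR adjusted p = 0.465), a ratio of 0.746. The 112 to 231 estimated counts behind each Rdh5 value carry a counting error of 6.58% to 9.45%, next to a spread between libraries of 13.4% in the knockdown group and 8.75% in the controls (SD over mean). In the GRCm38 annotation used here Rdh5 lies on chromosome 10 (128913593 to 128922888, minus strand) and shares 720 of its 2809 exonic bases with the same-strand gene Bloc1s1, so its reads may be divided between them. Bloc1s1, which encodes a subunit of a lysosome and melanosome biogenesis complex, had 12.2 ± 3.52 CPM in the knockdown group and 11.9 ± 2.01 CPM in the controls (SD, n = 4 each; edgeR adjusted p = 0.998).

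Lrat encodes the acyltransferase that turns retinol into the retinyl esters used as substrate by the isomerase. Its values were 10.2, 10.99, 9.24 and 8.83 CPM in knockdown libraries 1 to 4, and 10.4, 14.4, 14.5 and 13.1 CPM in controls 1 to 4. Control 1 lay within the knockdown range and the other 3 controls lay above it. The log2 fold change of Lrat was -0.41 (SE 0.12, 95% interval -0.68 to -0.15, edgeR adjusted p = 0.525), a ratio of 0.750. Without control 1 it was -0.51 (edgeR adjusted p = 0.444). Each Lrat value rests on 149 to 307 counts. The gene lies on chromosome 3 (82892579 to 82903973, minus strand).

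Rpe65 encodes the isomerohydrolase that makes cis retinol from retinyl esters and defines the pigment epithelium. It had 30.1, 26.1, 24.2 and 19.2 CPM in knockdown libraries 1 to 4, and 22.7, 32.8, 32.2 and 31.0 CPM in controls 1 to 4. Knockdown 4 was the lowest library and control 1 the second lowest, so the groups overlapped. The log2 fold change was -0.25 (SE 0.14, 95% interval -0.54 to 0.04, edgeR adjusted p = 0.943). It was -0.36 without control 1, -0.36 without knockdown 1 and -0.15 without knockdown 4. Rpe65 lies on chromosome 3 (159599175 to 159625321, plus strand).

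Stra6 encodes the membrane receptor that takes up retinol from its binding protein in the blood. It had 11.8, 10.7, 9.92 and 9.57 CPM in knockdown libraries 1 to 4, and 9.54, 11.9, 11.4 and 11.5 CPM in controls 1 to 4. The lowest value belonged to control 1 and the ranges overlapped over most of their extent. Its log2 fold change was -0.08 (SE 0.11, 95% interval -0.31 to 0.15, edgeR adjusted p = 0.991), and it ranged from -0.15 without control 1 to -0.04 without knockdown 4. Stra6 lies on chromosome 9 (58063788 to 58153996, plus strand).

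**Figure D3:**
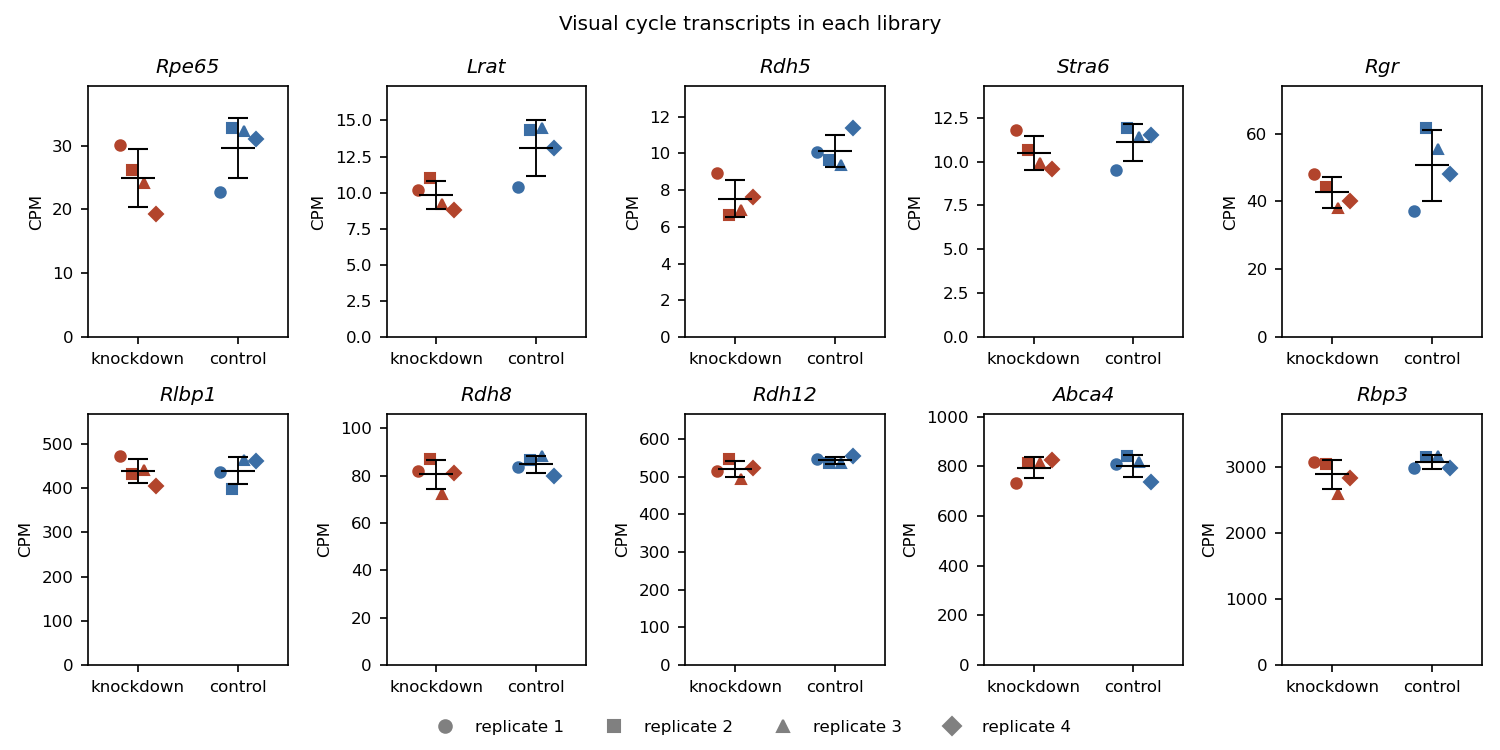
CPM of each of the 10 genes in every library (symbols, 1 per replicate number; knockdown left, control right), with the group mean and SD (black bars, n = 4 each) and axes that start at 0. The groups are apart for Rdh5, and control 1 (circle) is the lowest control for Rpe65, Lrat, Stra6 and Rgr.

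Rgr and Rlbp1, which the pigment epithelium shares with Müller glia, had a ratio below 1 and a ratio close to 1 in turn, and neither passed. Rgr encodes an opsin-like receptor that binds all-trans retinal and turns it to the cis form in light. It had 48.2, 44.3, 38.1 and 40.1 CPM in knockdown libraries 1 to 4, and 37.2, 61.7, 55.5 and 48.1 CPM in controls 1 to 4. Control 1 was the lowest and control 2 the highest of all 8 libraries. The log2 fold change of Rgr was -0.25 (SE 0.13, 95% interval -0.52 to 0.02, edgeR adjusted p = 0.936), and it was -0.37 without control 1 and -0.14 without control 2. Rlbp1 encodes CRALBP, the carrier of cis retinoids in pigment epithelium and Müller glia. It had 474, 433, 442 and 406 CPM in knockdown libraries 1 to 4, and 436, 399, 464 and 461 CPM in controls 1 to 4, with overlap of the groups. Its log2 fold change was -0.0044 (SE 0.06, 95% interval -0.14 to 0.13, edgeR adjusted p = 0.998). At 7126 to 9830 counts per library, counting error was at most 1.18% for Rlbp1. Rgr lies on chromosome 14 (37034909 to 37048964, minus strand) and Rlbp1 on chromosome 7 (79374870 to 79387048, minus strand).

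The promoters of the pair that stood lowest, Rdh5 and Lrat, and of the next lowest by ratio, Rpe65 and Rgr, are shown to compare their letters, as RefSeq windows of 300 bases on GRCm38.p6 from upstream to downstream of the transcript start. They lie at chr10:128919248-128919547 (minus), chr3:82903925-82904224 (minus), chr3:159598931-159599230 (plus) and chr14:37048965-37049264 (minus), in the order below. Capitals mark TAATCC on either strand, the core bound by the OTX2 and CRX homeodomain factors, and CATGTG on either strand, an E-box of the kind bound by MITF.
Rdh5: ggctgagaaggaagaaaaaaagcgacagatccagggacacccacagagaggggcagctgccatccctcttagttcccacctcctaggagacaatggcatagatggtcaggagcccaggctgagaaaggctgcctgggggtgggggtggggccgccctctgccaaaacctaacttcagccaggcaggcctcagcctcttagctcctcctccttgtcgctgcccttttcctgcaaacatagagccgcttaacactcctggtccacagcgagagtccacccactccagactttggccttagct
Lrat: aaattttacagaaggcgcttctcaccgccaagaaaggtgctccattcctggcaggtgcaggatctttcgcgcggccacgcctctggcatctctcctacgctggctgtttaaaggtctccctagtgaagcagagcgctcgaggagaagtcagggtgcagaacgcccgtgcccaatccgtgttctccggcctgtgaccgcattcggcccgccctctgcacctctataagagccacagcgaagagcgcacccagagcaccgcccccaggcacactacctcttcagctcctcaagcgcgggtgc
Rpe65: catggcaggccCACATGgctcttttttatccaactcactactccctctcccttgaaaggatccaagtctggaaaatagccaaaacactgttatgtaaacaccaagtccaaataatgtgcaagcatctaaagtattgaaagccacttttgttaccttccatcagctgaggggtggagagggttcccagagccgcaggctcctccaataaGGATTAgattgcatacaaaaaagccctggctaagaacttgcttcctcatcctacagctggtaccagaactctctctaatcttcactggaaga
Rgr: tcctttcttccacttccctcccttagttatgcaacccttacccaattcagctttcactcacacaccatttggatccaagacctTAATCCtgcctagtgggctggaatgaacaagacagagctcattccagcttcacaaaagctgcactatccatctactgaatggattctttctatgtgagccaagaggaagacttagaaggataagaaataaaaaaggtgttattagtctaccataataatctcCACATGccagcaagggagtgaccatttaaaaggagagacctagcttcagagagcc
All 10 genes matched the RefSeq table, with 13 windows between them. TAATCC or its reverse complement stood in a window of 4 of the 10 genes (Abca4, Rbp3, Rgr and Rpe65), where 7.06% of 32851 single promoter windows hold it. CATGTG or its reverse complement stood in those of Rbp3, Rgr, Rlbp1 and Rpe65, where 14.2% of single windows hold it. The windows of Rdh5, Lrat, Rdh8, Rdh12 and Stra6 (4 windows) held neither. The shares are per window, while the 10 genes are counted by gene.

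The photoreceptor genes of the cycle lay close to each other in the 2 groups. Rbp3 encodes the retinoid-binding protein that photoreceptors secrete into the matrix between them and the pigment epithelium. It had 3079, 3043, 2594 and 2842 CPM in knockdown libraries 1 to 4, and 2992, 3162, 3176 and 2985 CPM in controls 1 to 4. Knockdown 3 and knockdown 4 lay below all controls, and the other knockdown libraries lay among them. The log2 fold change was -0.09 (SE 0.06, 95% interval -0.22 to 0.04, edgeR adjusted p = 0.981), and -0.04 without knockdown 3.

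Abca4 encodes the outer segment transporter that clears retinal bound to lipid from the disc membranes. It had 732, 814, 812 and 824 CPM in knockdown libraries 1 to 4, and 811, 843, 818 and 738 CPM in controls 1 to 4. Knockdown 1 and control 4 were the low libraries, 1 in each group. Its log2 fold change was -0.01 (SE 0.06, 95% interval -0.14 to 0.11, edgeR adjusted p = 0.998), 0.02 without knockdown 1 and 0.01 without control 2.

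The retinal reductases of the photoreceptor turn all-trans retinal into retinol, Rdh8 in the outer segment and Rdh12 in the inner segment. Rdh8 had 82.1, 86.9, 72.3 and 81.3 CPM in knockdown libraries 1 to 4, and 83.6, 86.8, 88.5 and 80.0 CPM in controls 1 to 4 (log2 fold change -0.07, SE 0.06, 95% interval -0.20 to 0.06, edgeR adjusted p = 0.989). Rdh12 had 515, 547, 495 and 523 CPM in knockdown libraries 1 to 4, and 547, 536, 537 and 556 CPM in controls 1 to 4 (log2 fold change -0.07, SE 0.05, 95% interval -0.17 to 0.04, edgeR adjusted p = 0.989). Knockdown 3 was the lowest library for both, and the groups overlapped for both. Without knockdown 3 the log2 fold change was -0.02 for Rdh8 and -0.04 for Rdh12, and without knockdown 2 it was -0.11 for Rdh8. Without knockdown 3 and control 3, an alternative chosen after seeing the data, it was -0.00094 for Rdh8 and -0.03 for Rbp3. Of the photoreceptor genes, Rbp3 lies on chromosome 14 (33954003 to 33964216), Abca4 on chromosome 3 (122044443 to 122180123), Rdh8 on chromosome 9 (20818503 to 20826117) and Rdh12 on chromosome 12 (79208914 to 79222665), all on the plus strand. Rod markers outside the 10 genes had the same sign in most cases: 15 of 16 had negative log2 fold changes, with a median of -0.06, and their summed level in all 4 knockdown libraries lay below all 4 controls. None of the 16 passed in edgeR (2 at an unadjusted p under 0.05, against 5.27% of all genes), DESeq2 (4) or limma (2). The part of rod content in the values of Rbp3, Rdh8 and Rdh12 was not tested.

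Summed over Rpe65, Lrat, Rdh5 and Stra6, the level per length was 75.6, 68.0, 65.4 and 57.8 TPM in knockdown libraries 1 to 4, and 68.6, 88.9, 84.1 and 82.9 TPM in controls 1 to 4. Control 1 lay inside the knockdown range, and the other controls lay above it. Summed over Rbp3, Rdh12, Abca4 and Rdh8, the level was 2529.6 ± 111 TPM in the knockdown group and 2658 ± 114 TPM in the controls (SD, n = 4 each), with overlap. These sums rest mainly on Rpe65 and Rbp3, the highest members of each.

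Several of the genes had a like order of libraries. Over the 8 libraries, on the log2(CPM + 1) scale, the Pearson correlation of Rpe65 was 0.95 with Stra6, 0.86 with Rgr and 0.85 with Lrat (Spearman 0.88, 0.90 and 0.86), given as a description of libraries that also share the group difference. As deviations from the group means the values were 0.96, 0.82 and 0.86, and without control 1 and knockdown 4, the libraries farthest from the median of Rpe65, they were 0.94, 0.93 and 0.85. The correlation of Rdh5 with Rpe65 was 0.50 over 8 libraries and 0.17 as deviations from the group means. Without control 1 and knockdown 4 it was 0.86, a value that includes the group difference. In the 6 libraries left, every knockdown value lay below every control value for both genes. Outside the pigment epithelium, the photoreceptor gene Rbp3 had a correlation of 0.64 with Rpe65 (Spearman 0.74), 0.73 with Lrat and 0.75 with Rgr. For Rbp3 with Rpe65 the Pearson value was 0.51 as deviations from the group means. Without control 1 and knockdown 4 it was 0.83, which again includes the group difference. In control 1 the Rdh5 value was 10.1 CPM, above every knockdown library, while the Rpe65 value was below 3 of them. As a ratio within a library, Rdh5 to Rpe65 in TPM was 0.377, 0.326, 0.364 and 0.504 in knockdown libraries 1 to 4, and 0.567, 0.375, 0.371 and 0.469 in controls 1 to 4, with overlap. Rlbp1 had a correlation of 0.40 with Rpe65 (Spearman 0.19), and of 0.45 as deviations from the group means. Without control 1 and knockdown 4 the Pearson value of Rlbp1 with Rpe65 was -0.0018. With Abca4 the correlation of Rlbp1 was -0.75 (Spearman -0.74).

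**Figure D4:**
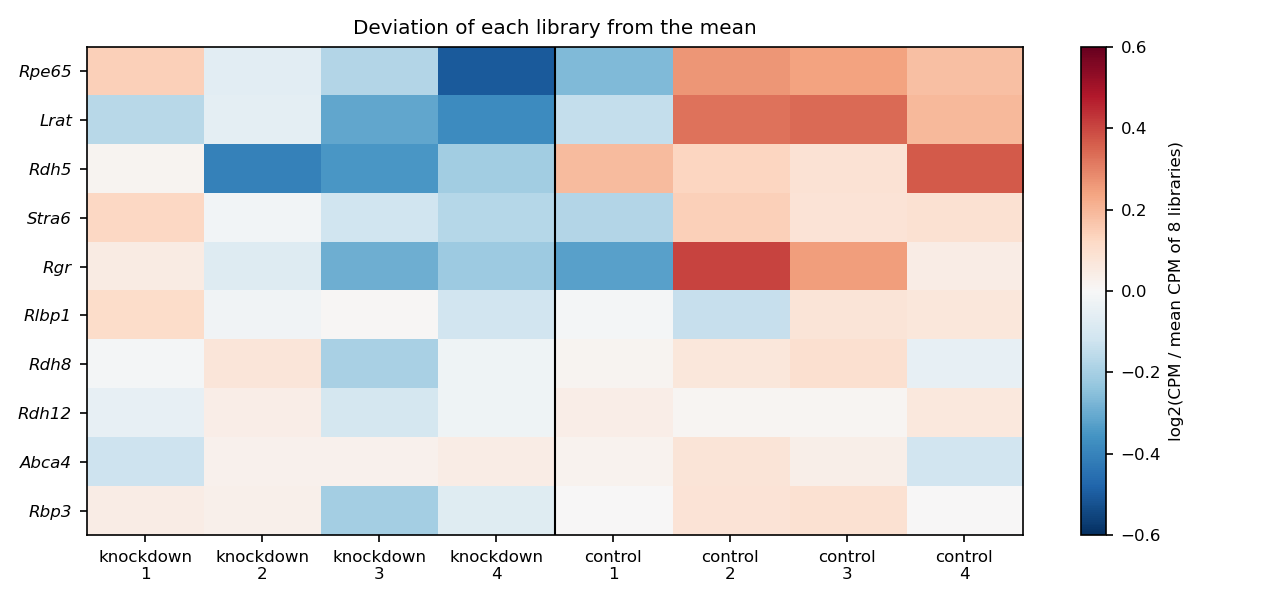
Deviation of each library from the mean over 8 libraries, as log2(CPM / mean CPM), for each of the 10 genes (rows) in knockdown 1 to 4 (left of the line) and control 1 to 4 (right). Rpe65, Lrat, Stra6 and Rgr are low together in control 1, knockdown 3 and knockdown 4, while the photoreceptor rows span a narrower range.

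The genes most like Rpe65, Abca4 and Rlbp1 in their pattern over the 8 libraries were taken by the highest Pearson correlation among all tested genes, and with so many candidates and 8 libraries high values can arise for any gene. For Rpe65 they were Pinx1 (0.98), Rrp1 (0.97), Tmem38a (0.94), Cybc1 (0.94) and Nipal1 (0.93). For Abca4 they were Spen (0.99), Ago2 (0.99), Glra1 (0.98), Kmt2a (0.98) and Gm31392 (0.98). For Rlbp1 they were Manf (0.99), Exosc2 (0.99), Jkamp (0.99), Slc30a6 (0.98) and Sgk3 (0.98). None of these 15 passed in edgeR.

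Markers of pigment epithelium outside the 10 genes did not share one direction. Of the 18 on the list all had counts and 16 were tested; 0 passed in edgeR, DESeq2 or limma, and 10 had positive and 6 negative log2 fold changes, with a median of 0.08. At an unadjusted edgeR p under 0.05 there were 4 higher and 2 lower, against 2.62% and 2.66% of all genes. Their summed level was 470 to 571 TPM in the knockdown group and 483 to 539 TPM in the controls, so the list's sum overlapped. The highest members of this sum were Ttr, Krt18 and Enpp2, with means of 186, 103 and 72.5 TPM over the 8 libraries. Ttr, which encodes the carrier of retinol-binding protein and thyroid hormone, had 82.7 ± 19.2 CPM in the knockdown group and 96.6 ± 8.93 CPM in the controls (log2 fold change -0.22, edgeR adjusted p = 0.951). The keratin gene Krt18 had 59.9 ± 5.57 CPM in the knockdown group and 60.2 ± 3.66 CPM in the controls (SD, n = 4 each). Best1, a chloride channel gene that defines the pigment epithelium, was low. It had 0.347 to 1.09 CPM in the knockdown group and 0.0944 to 1.201 CPM in the controls, where 3 counts were 0.140 to 0.187 CPM.

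The 6 genes of that list with an unadjusted p under 0.05, named after their values were seen, lay on both sides. Mitf, which encodes the master transcription factor of pigment cells, had 4.25, 5.16, 5.33 and 5.85 CPM in knockdown libraries 1 to 4, and 6.71, 6.10, 8.02 and 7.64 CPM in controls 1 to 4 (log2 fold change -0.47, 95% interval -0.77 to -0.16, edgeR adjusted p = 0.595). Enpp2, the gene of the lysophospholipase autotaxin, had 74.7 ± 3.05 CPM in the knockdown group and 86.6 ± 5.33 CPM in the controls (log2 fold change -0.21, edgeR adjusted p = 0.381). Of the genes with higher values in knockdown, Tyr, the gene of tyrosinase, which starts melanin synthesis, had 9.64 ± 0.956 CPM in the knockdown group and 7.09 ± 0.719 CPM in the controls (log2 fold change 0.44, edgeR adjusted p = 0.411). Dct had 53.8 ± 6.87 CPM in the knockdown group and 44.4 ± 5.30 CPM in the controls, and the melanosome matrix gene Pmel 14.3 ± 2.64 CPM in the knockdown group and 9.95 ± 3.15 CPM in the controls. Gpnmb, a melanosome and macrophage glycoprotein gene, had 36.1 CPM in knockdown 1, 12.5 to 16.4 CPM in the other knockdown libraries and 7.88 to 11.6 CPM in the controls (log2 fold change 0.997, edgeR adjusted p = 0.459). Gpnmb passed when edgeR was run with no expression filter. The groups did not overlap for Mitf and Enpp2, lower in knockdown, or for Tyr and Gpnmb, higher in knockdown. Of all tested genes 3.31% had no overlap in either direction and 1.71% had none with knockdown lower. Rrh, on the same list with an unadjusted edgeR p of 0.230, also had no overlap. It had 18.7 to 19.6 CPM in the knockdown group and 17.2 to 18.6 CPM in the controls. The pigment gene Oca2, on the same list, had 2.38 ± 0.735 CPM in the knockdown group and 2.49 ± 0.485 CPM in the controls (log2 fold change -0.08, edgeR adjusted p = 0.997). The pigment genes Tyr, Dct and Pmel are also expressed by melanocytes of the choroid and by the iris. The 8 stroma markers of choroid and sclera summed to 36.4 to 47.2 TPM in the knockdown group and 33.5 to 52.5 TPM in the controls. The 5 ciliary and iris markers in the table summed to 154 to 202 TPM in the knockdown group and 128 to 177 TPM in the controls. Neither list had a member that passed.

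**Figure D5:**
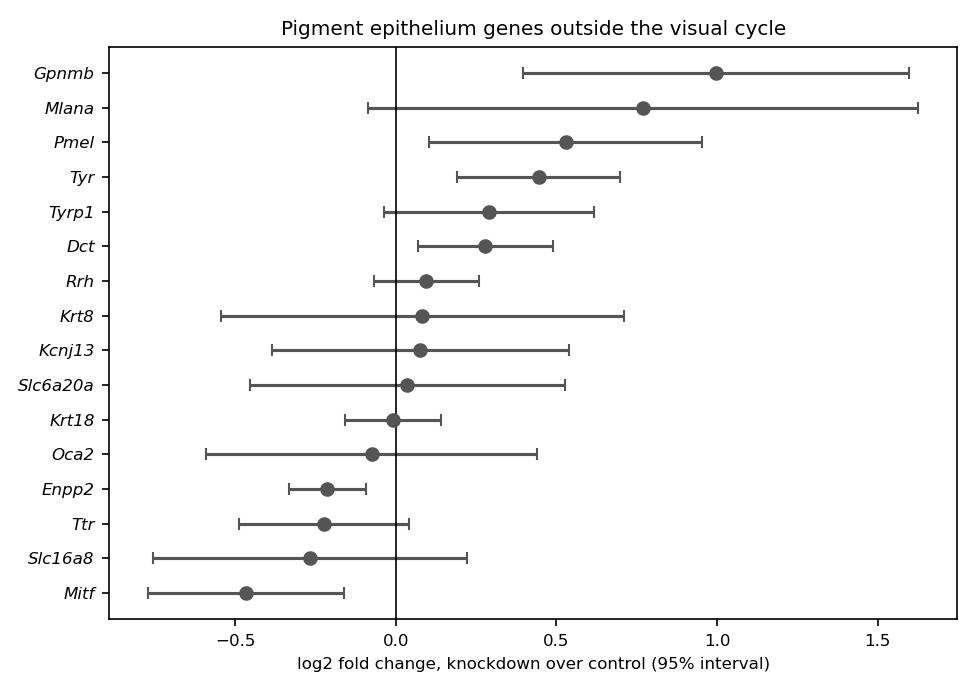
Log2 fold change, knockdown over control, with its 95% interval from edgeR for the 16 tested pigment epithelium markers outside the 10 genes, ordered by fold change. Gpnmb, Mlana, Pmel, Tyr, Tyrp1 and Dct lie at the top, the melanosome transporter gene Oca2 lies below 0, and Mitf, Slc16a8, Ttr and Enpp2 lie at the bottom; no gene passed after adjustment over all tested genes.

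Other genes that handle retinoids did not pass either. Of 24 genes for retinol transport, storage and oxidation outside the set 16 were tested, 0 passed in edgeR, DESeq2 or limma, 7 had positive and 9 negative log2 fold changes, and the median was -0.04. The 1 gene with an unadjusted edgeR p under 0.05, against 5.27% of all genes, was Cd36, named after its value was seen. Cd36, a fatty acid and lipoprotein receptor gene, had 3.52 ± 1.55 CPM in the knockdown group and 2.28 ± 0.295 CPM in the controls (log2 fold change 0.63, edgeR adjusted p = 0.911). The most abundant besides Ttr was Scarb1, a lipoprotein receptor gene that also takes up carotenoids, at 140 ± 7.75 CPM in the knockdown group and 133 ± 4.96 CPM in the controls (SD, n = 4 each). Of 14 genes for retinoic acid synthesis, breakdown and reception 11 were tested and 0 passed in edgeR, DESeq2 or limma, with 3 positive and 8 negative log2 fold changes and a median of -0.03. Aldh1a1, which oxidizes retinal to retinoic acid, had 71.5 ± 5.42 CPM in the knockdown group and 65.1 ± 8.38 CPM in the controls. The receptor gene Rxra averaged 61.5 CPM in the knockdown group and 62.1 CPM in the controls (95% interval of the log2 fold change -0.12 to 0.09). In this list the 1 gene with an unadjusted edgeR p under 0.05, against 5.27% of all genes, was Cyp26a1, named after its value was seen. Cyp26a1, which breaks retinoic acid down, had 2.80, 2.03, 2.91 and 2.18 CPM in knockdown libraries 1 to 4. In controls 1 to 4 it had 1.03, 1.78, 1.09 and 2.07 CPM (log2 fold change 0.73, edgeR adjusted p = 0.813).

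The opsins of rods and cones take up the cis retinal that the cycle returns. The opsin list, which also holds Opn3 and Opn4, had negative log2 fold changes in 5 of 5 tested genes, against 48.2% of all genes. Their median was -0.15, and 0 passed in edgeR, DESeq2 or limma. At an unadjusted p under 0.05 there were 2 in edgeR, against 5.27% of all genes, 1 in DESeq2 and 2 in limma. The 2 in edgeR, named after their values were seen, were Opn1sw and Opn3. Opn3 was low, at 0.620 to 1.09 CPM in the knockdown group and 0.937 to 1.62 CPM in the controls. Opn1sw, the short-wavelength cone pigment gene, had 307 ± 26.6 CPM in the knockdown group and 338 ± 8.26 CPM in the controls (log2 fold change -0.14, edgeR adjusted p = 0.911). Cone markers outside the set had 3 positive and 8 negative log2 fold changes of 11, with a median of -0.07. In edgeR, DESeq2 and limma 0 of them passed. At an unadjusted p under 0.05 there was 1 in each, against 5.27% of all genes in edgeR. Müller glia markers were split, with 0 that passed in edgeR, DESeq2 or limma, 7 positive and 5 negative of 12 and a median of 0.01. The 1 with an unadjusted edgeR p under 0.05, against 5.27% of all genes, was Hes1, named after its value was seen. Hes1, the gene of a Notch effector, had 15.4 ± 0.832 CPM in the knockdown group and 12.4 ± 0.824 CPM in the controls (log2 fold change 0.31, edgeR adjusted p = 0.465). Its groups did not overlap, where 3.31% of all tested genes had no overlap in either direction. By the rule, Glul, the gene of glutamine synthetase, had 2733 ± 185 CPM in the knockdown group and 2828 ± 159 CPM in the controls (SD, n = 4 each).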

How the data were processed

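RNA from 8 retinal samples (4 knockdown, 4 control) was sequenced as paired reads after TRIzol extraction, per the labels' protocols. Per the submitters' processing notes, Bowtie 0.12.2 and mm9 were involved; their roles are not stated. The deposited table is named for TPM, yet its values are estimated counts per gene: libraries sum to 16025695 to 21402898 and 90.6% to 91.9% of entries are whole. The sources used here name neither the counting tool nor the annotation. The authors' 2 columns of group values were not used.

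Estimated counts were rounded for edgeR, and TPM used the gene lengths in the table. A gene was tested where 4 or more libraries reached 1 TPM (16118 of the 29582 genes detected after rounding), with edgeR 4.0.16 in R 4.3.3 (TMM, quasi-likelihood, group as the only term, Benjamini-Hochberg adjustment over all tested genes). SE was derived from the log2 fold change and edgeR's F statistic, and 95% intervals use edgeR's total degrees of freedom. DESeq2 1.42.0 and limma 3.58.1 were alternatives. The edgeR step was tested on simulated data. Counting errors cover counting alone: no molecular identifiers are described, so reads need not be separate molecules. At these depths 3 counts were 0.140 to 0.187 CPM.

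The 10 genes, the lists and the rule for named genes (all 10, the called or most abundant members of each list, and the genes most like Rpe65, Abca4 and Rlbp1) were chosen with earlier results of these data known. One gene that the rule names is not reported here. Positions are from GENCODE M21 on GRCm38 and promoters from RefSeq on GRCm38.p6.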

Additional observations from a re-analysis of the deposited data

Results flagged for a closer look

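Within groups of 4, 1 library lay far from the other 3 in 8 of the 78 groups of values examined (39 genes), where chance flags about 5% of groups. Abca4 had 732 CPM in knockdown 1 and 812 to 824 CPM in the other knockdown libraries. Gpnmb had 36.1 CPM in knockdown 1 and 12.5 to 16.4 CPM in the others. The cone transducin gene Gnb3 had 397 CPM in knockdown 1 and 227 to 253 CPM in the others. Dct had 43.6 CPM in knockdown 3 and 56.3 to 58.8 CPM in the others. Best1 had 1.09 CPM in knockdown 2 and 0.347 to 0.434 CPM in the others, where 3 counts were 0.149 to 0.187 CPM. For Tyr, control 1 lay at 6.02 CPM, against 7.36 to 7.54 CPM for controls 2 to 4. For Opn1sw, control 3 lay at 351 CPM, against 333 to 336 CPM for controls 1, 2 and 4. The lens gene Cryge lay at 0.0961 CPM in control 2, where controls 1, 3 and 4 had 0 counts.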

How the results depend on the processing

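Under 18 alternatives 0 of the 10 visual cycle genes passed, the smallest adjusted p being 0.167 for Lrat in edgeR with no expression filter. Of 180 log2 fold changes 170 kept their sign. For Rlbp1 it became 0.000914 with library totals alone and 2.6e-05 in both limma fits (pseudocounts 1 and 0.1), ranged from -0.0486 to 0.0295 with 1 library left out (0.0019 without knockdown 2, 0.0295 without knockdown 4, 0.02 without control 3 and 0.02 without control 4), and was 0.0185 without knockdown 3 and control 3. For Abca4 it ranged from -0.0511 to 0.0249 with 1 library left out (0.0249 without knockdown 1 and 0.01 without control 2). Rdh5 ranged from -0.51 to -0.36 and Lrat from -0.51 to -0.33 over the alternatives. With the Ddx3y level as a covariate Rdh5 was -0.45 and Lrat -0.35.

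Over all genes 10 passed in edgeR, 45 in DESeq2, 157 with no expression filter and 1 with a mean of at least 5 TPM. In limma 0 passed on log2(TPM + 1) (804 at an unadjusted p under 0.05) and 9 on log2(TPM + 0.1). With 1 library left out the number was 0 to 58 (0 without control 1 or 2, 1 without control 4, 58 without control 3), and 46 without knockdown 3 and control 3, an alternative chosen after seeing the data. The cause was not tested. With the replicate number as a block 11 genes and 0 of the 10 passed. Same-numbered samples did not deviate together (correlations of -0.18 to 0.01, against -0.16 to 0.19 for samples with different numbers). With 4 libraries a group, taken from their own group means, these values cannot settle whether the numbers pair the samples. The labels give no pairing.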
